A study of Oryza sativa with 35 samples.

Results

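The comparison described here set DC90 after 12 h of recovery from chilling against untreated DC90, 3 libraries on each side, which are 6 of the 35 RNA-Seq libraries of the series. Its members were chosen by their labels alone, the 3 libraries of DC90 (written W9 in the labels) at 84 h and the 3 at 0 h. DC90 carries the wild rice (Oryza rufipogon) locus CTS-12 in the background of 9311, an indica cultivar (Oryza sativa), and is described as chilling tolerant. All plants were 30 days old, and whole plants were sampled. The 84 h plants had been kept at 10 °C by day and 8 °C by night for 72 h and then returned to normal growth for 12 h, and the 0 h plants had not been chilled. DC90 at 96 h (24 h of recovery, 3 libraries), 9311 at 84 h (2 libraries, replicates 1 and 3) and 9311 at 0 h (3 libraries) were used where stated. Because 84 h lies 12 h out of phase with 0 h in the day, recovery and time of day cannot be told apart in this contrast. The contrast also holds whatever change was left from the 72 h of chilling. The material is also a single introgression line, so that CTS-12 and any other wild rice segment the line holds cannot be told apart.

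Chilling slows membrane transport, photosynthesis and growth of rice, and plants returned to warmth have to restart them. The first transcription factors to answer cold in plants include the DREB1 (CBF) factors, which bind the promoters of cold-response genes, together with ERF, WRKY and NAC factors. Abscisic acid (ABA), made by 9-cis-epoxycarotenoid dioxygenases (NCEDs) and removed by 8'-hydroxylases, closes stomata under water loss. The plant clock is a loop of morning genes such as LHY and evening genes such as PRR1/TOC1, GI, LUX and FKF1, and it sets the daily rhythm of the genes of the light-harvesting antenna.

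Between 28004101 reads (84 h replicate 2) and 68927044 reads (0 h replicate 3) were counted per library. Pearson correlations of log2 CPM (counts scaled to library size and TMM-normalised, the scale of all levels below) were 0.8833 to 0.9456 within each group of 3 and 0.7957 to 0.8697 between the groups. A pair of loci of chromosome 12 was picked from these libraries because it separates the labelled genotypes, so it describes the libraries and is no independent test of their labels. LOC_Os12g35590 had 42.8 to 71.6 CPM in the 6 libraries and at most 2 counts in the 9311 libraries of 84 h and 0 h, while LOC_Os12g17120 had 0 counts in the 6 and 9.88 to 24.1 CPM in those of 9311. DC90 24 h replicate 1, which enters the fit only through the shared spread, stood apart from the other 17 DC90 libraries at a pair of neighbouring loci. LOC_Os12g07010 had 431.9 CPM in it, at most 0.194 CPM in the others and 272 to 613 CPM in 9311, and LOC_Os12g07020 had 139.9 CPM in it, 364 to 667 CPM in the others and 14.9 to 93.7 CPM in 9311. Without it 558 DEGs were called. The 0 h libraries were not alike in root RNA. The 7 root markers that could be tested summed to 310.4, 92.9 and 171.3 CPM at 84 h, against 82.2, 80.7 and 1097 CPM at 0 h, so that 0 h replicate 3 stood far above all others. None of the 7 passed the test (log2 fold changes from −4.03 to −0.34), and no marker was at 0 in all libraries. Of the genes highest in 0 h replicate 3, only expansin-B2 is given below also without that library. Others, such as ChlH and PIP2-2, are not. Both shoot meristem markers, OSH1 and OSH15, summed to 29.1 to 34.5 CPM at 84 h and 13.3 to 22.3 CPM at 0 h, without passing the test. In whole plants, fewer cells of a type and less RNA per cell cannot be told apart.

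Of the 22961 loci tested with edgeR's quasi-likelihood test, 577 were DEGs, which here needed a Benjamini-Hochberg adjusted p of 0.001 or less and a log2 fold change of 2 or more in either direction. They were 72 higher and 505 lower at 84 h than at 0 h. These are 0.314% and 2.2% of the loci tested, 2.51% in all. At an adjusted p of at most 0.05 alone, the mark used for gene lists below, 744 loci were higher (3.24%) and 2083 lower (9.07%). Libraries did not overlap between the groups at 3262 higher loci (14.2%) and 3880 lower loci (16.9%), and at all 72 and 505 DEGs. The median log2 fold change of all loci was 0.0143 after TMM scaling. TMM factors were 1.25 to 1.30 at 84 h and 0.893 to 0.983 at 0 h, so the balance of directions rests on that scaling. On the FPKM as deposited, limma shifted the median to 0.3676 and called 5178 loci higher and 1634 lower at an adjusted p of at most 0.05, but still 89 higher and 383 lower at the DEG thresholds. Leaving out 1 library at a time gave 297 to 544 DEGs, with 368 without 0 h replicate 1, 319 without 84 h replicate 1 and 297 without 84 h replicate 2. A fit of the 6 libraries alone called 1 DEG, and it was not among the 577 (0 shared), with 280 loci higher and 1400 lower at an adjusted p of at most 0.05.

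Clock and light-response genes were among the largest falls. The largest falls and rises were drawn only from described DEGs whose libraries did not overlap between the groups. OsLHY (LOC_Os08g06110), the morning transcription factor of the clock, had 11.9, 19.9 and 29.1 CPM at 84 h, against 2236, 1308 and 2143 CPM at 0 h (replicates 1 to 3, as throughout). Its log2 fold change was −6.54 ± 0.42 (SE, adjusted p = 1.23e-10). A locus described as CONSTANS-LIKE 5 (LOC_Os08g15050), a B-box zinc finger protein, had 0.956, 1.16 and 2.34 CPM at 84 h, against 158, 157 and 177 CPM at 0 h (log2 fold change −6.79 ± 0.53 (SE), adjusted p = 1.51e-09). Both groups were tight and lay far apart. RUP2 (LOC_Os02g02380), which in Arabidopsis represses the UV-B receptor, had 0.258, 0.469 and 1.01 CPM at 84 h and 41.0, 58.1 and 65.8 CPM at 0 h (log2 fold change −6.56 ± 0.63 (SE), adjusted p = 5.69e-08). BIC1 (LOC_Os02g32990), an inhibitor of the blue-light receptor cryptochrome in Arabidopsis, had 0.910, 3.29 and 3.78 CPM at 84 h and 226, 220.2 and 144 CPM at 0 h (log2 fold change −6.21 ± 0.73 (SE), adjusted p = 1.33e-06). The photoprotective early light-inducible protein HV58 (LOC_Os01g14410) fell to 0.622, 0.635 and 0.732 CPM, against 48.8, 48.9 and 29.3 CPM at 0 h (log2 fold change −5.99 ± 0.50 (SE), adjusted p = 6.78e-09).

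Further large falls were found in genes of several kinds. A multidrug and toxin extrusion transporter, DETOXIFICATION 49 (LOC_Os04g48290), had 7.95, 4.61 and 6.24 CPM at 84 h, against 584, 464 and 141 CPM at 0 h (log2 fold change −5.98 ± 0.72 (SE), adjusted p = 1.95e-06). A metal-binding protein, HIPP47 by its description (LOC_Os04g39290), had 0.364, 0.414 and 1.10 CPM at 84 h and 50.7, 72.6 and 32.3 CPM at 0 h (log2 fold change −6.36 ± 0.80 (SE), adjusted p = 3.57e-06). The nitrate transporter NRT2.4 by description (LOC_Os01g36720) had 0.121, 0.0828 and 0.192 CPM at 84 h and 13.2, 2.45 and 10.9 CPM at 0 h (log2 fold change −6.01 ± 0.86 (SE), adjusted p = 2.04e-05). It was low at 84 h in each library, and at 0 h lowest in replicate 2, while 0 h replicate 3, the library rich in root markers, was not the highest. LOC_Os01g61470, an ATL72-like RING-H2 finger protein that belongs to the ubiquitin ligases, had 0 counts in all 84 h libraries and 2.43, 2.55 and 0.847 CPM at 0 h, at least 32.3-fold lower against a floor of 3 counts per library. Oryza_sativa_newGene_4710, a locus added by the authors and described as UDP-glycosyltransferase 73C1, had 1 count in the 84 h libraries together and 17.8, 27.0 and 10.6 CPM at 0 h, a ratio of 0 h over 84 h of 2822 (95% interval 506 to 111484, counting error only). LOC_Os11g02610 and LOC_Os12g02530, which share the description root phototropism protein 2, had log2 fold changes of −6.21 and −6.02, and how reads were divided between such copies is not given in the sources used here.

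**Figure D1:**
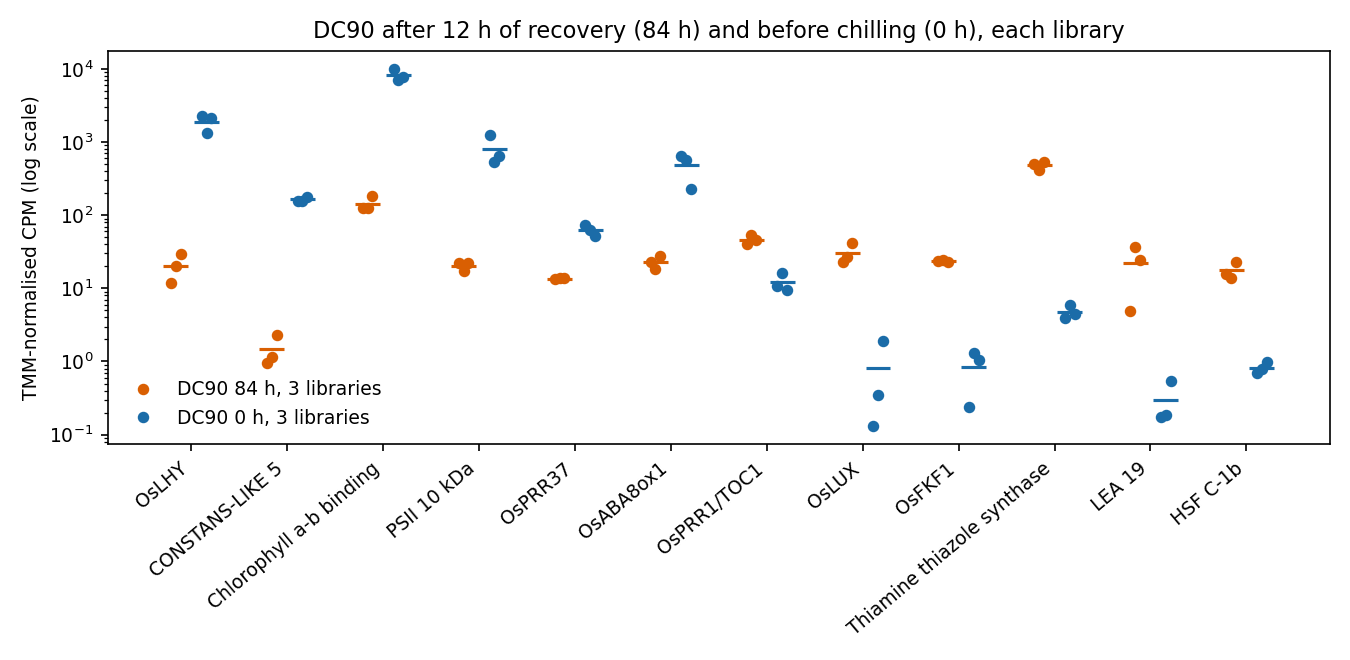
TMM-normalised CPM on a log scale (y axis) of 12 named genes (x axis) in each library of DC90 at 84 h (orange, left) and 0 h (blue, right), with the bar at the group mean. The libraries of the groups do not overlap for any of these genes, from OsLHY (at most 29.1 CPM at 84 h and at least 1308 CPM at 0 h) to HSF C-1b (at least 13.9 CPM at 84 h and at most 0.973 CPM at 0 h). For the largest rises and falls this was a condition of their choice.

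Among the genes that rose, thiamine thiazole synthase 2 (LOC_Os07g34570), which makes the thiazole part of vitamin B1, had 502, 419 and 529 CPM at 84 h, against 3.88, 5.92 and 4.39 CPM at 0 h. Its log2 fold change was 6.67 ± 0.36 (SE, adjusted p = 3.93e-12). All 84 h libraries were far above all 0 h libraries. At 72 h, the end of chilling, this gene had 971, 831 and 1055 CPM, above each 84 h library. Bifunctional nuclease 1 (LOC_Os01g50622) had 74.1, 48.2 and 157 CPM at 84 h and 2.22, 2.88 and 1.52 CPM at 0 h (log2 fold change 5.40 ± 0.46 (SE), adjusted p = 7.7e-09). JMJ30 (LOC_Os08g39810), a histone demethylase with an evening peak in Arabidopsis, had 3.57, 6.57 and 5.35 CPM at 84 h and 0.0646, 0.228 and 0.361 CPM at 0 h (log2 fold change 4.52 ± 0.60 (SE), adjusted p = 7.53e-06). A lipid-transfer protein (LOC_Os04g33920) had 20.9, 26.6 and 23.2 CPM at 84 h, against 0.388, 0.747 and 1.38 CPM at 0 h (log2 fold change 4.80 ± 0.66 (SE), adjusted p = 1.16e-05). In each of these the lowest 84 h library lay above the highest 0 h library, which was a condition of their choice and no separate result.

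Other large rises were of genes with differing roles. The chloroplast chaperone DnaJ C76 (LOC_Os04g57880) had 24.8, 21.3 and 50.3 CPM at 84 h, against 0.409, 0.145 and 0.376 CPM at 0 h (log2 fold change 6.67 ± 0.82 (SE), adjusted p = 2.53e-06). DnaJ 6 (LOC_Os01g42190) had 1.35, 11.1 and 5.12 CPM at 84 h and 0.108, 0.145 and 0.125 CPM at 0 h (log2 fold change 5.50 ± 0.80 (SE), adjusted p = 2.28e-05). The 17.4 kDa class I heat shock protein (LOC_Os03g16020) had 3.02, 23.2 and 13.1 CPM at 84 h and 0.539, 0.208 and 0.800 CPM at 0 h (log2 fold change 4.65 ± 0.72 (SE), adjusted p = 5.12e-05). In DnaJ 6 and this heat shock protein, 84 h replicate 1 was the lowest of its group and replicate 2 the highest. The same order held for LEA19 (LOC_Os05g46480), a late embryogenesis abundant protein of the kind that shields proteins in dry cells, with 4.84, 36.9 and 24.5 CPM at 84 h and 0.172, 0.187 and 0.533 CPM at 0 h (log2 fold change 6.16 ± 0.96 (SE), adjusted p = 5.61e-05). It also held for cytochrome P450 709B2 (LOC_Os07g23570), the largest fitted change among these, with 1.97, 58.2 and 12.98 CPM at 84 h and 0.215, 0.187 and 0.125 CPM at 0 h (log2 fold change 7.10 ± 1.10 (SE), adjusted p = 5.09e-05). Its value in 84 h replicate 1 was far below that in replicate 2, so its mean rests on replicate 2. A further P450, 76M5 by description (LOC_Os08g39730), also rose (log2 fold change 4.87 ± 0.84 (SE), adjusted p = 0.000192).

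Of the 18 tested dehydrins and LEA proteins (23 matched), 3 rose (16.7%, against 3.24% of all loci) and 0 fell (against 9.07%), with a median log2 fold change of 0.20. Beside LEA19 these were dehydrin Rab16B (LOC_Os11g26570), with 0.334, 1.05 and 1.08 CPM at 84 h and 0 counts in every 0 h library, and a group 3 LEA protein (LOC_Os03g07180), which was also at 0 in 84 h replicate 1. Rab16B was at least 14.2-fold higher against the floor of 3 counts per library. Of 37 heat shock proteins tested, 4 rose (10.8%) and 3 fell (8.11%, near the share of all loci), with a median of 0.0913. Heat shock protein 82 (LOC_Os04g01740), a cytosolic HSP90, had 1.64, 8.94 and 5.33 CPM at 84 h and 0, 0 and 0.204 CPM at 0 h (log2 fold change 6.11 ± 1.25 (SE), adjusted p = 0.0012), and mitochondrial small heat shock proteins of 23.6 and 24.1 kDa were among those that fell. The 25 heat stress transcription factors tested went both ways, with 3 higher (12%) and 4 lower (16%). HSF C-1b (LOC_Os01g53220) had 15.9, 13.9 and 23.2 CPM at 84 h, against 0.690, 0.789 and 0.973 CPM at 0 h (log2 fold change 4.43 ± 0.37 (SE), adjusted p = 6.78e-09), and HSF C-2a (LOC_Os02g13800) had 2.50, 0 and 3.00 CPM at 84 h, against 79.3, 74.0 and 102 CPM at 0 h (log2 fold change −5.51 ± 0.73 (SE), adjusted p = 6.77e-06). These factors of the same class thus lay on opposite sides without overlap.

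All 14 clock genes were tested, and 4 rose (28.6%, against 3.24% of all loci), 3 fell (21.4%, against 9.07%) and 7 did not pass (median −0.38). Those that rose are expressed in the evening in other plants. OsLUX (LOC_Os01g74020), of the evening complex, had 22.8, 27.1 and 41.9 CPM at 84 h, against 0.129, 0.353 and 1.93 CPM at 0 h (log2 fold change 5.21 ± 0.68 (SE), adjusted p = 5.96e-06). Under chilling, at the time of day of 0 h, OsLUX had 65.7, 141.9 and 119.7 CPM at 24 h and 18.5, 27.5 and 37.6 CPM at 72 h. OsLHY had 176, 236 and 176 CPM at 72 h. OsFKF1 (LOC_Os11g34460), a blue-light receptor and F-box protein, had 23.4, 24.1 and 23.1 CPM at 84 h, against 0.237, 1.29 and 1.04 CPM at 0 h (log2 fold change 4.77 ± 0.62 (SE), adjusted p = 5.82e-06). OsPRR1/TOC1 (LOC_Os02g40510), the evening pseudo-response regulator, had 40.5, 52.8 and 45.2 CPM at 84 h and 10.8, 16.2 and 9.40 CPM at 0 h (log2 fold change 1.93 ± 0.27 (SE), adjusted p = 1.39e-05). OsGI (LOC_Os01g08700), which binds FKF1 in Arabidopsis, had 323, 331 and 279 CPM at 84 h and 79.1, 91.2 and 133 CPM at 0 h (log2 fold change 1.62 ± 0.29 (SE), adjusted p = 0.000341). Beside OsLHY, the genes that fell were the daytime regulators OsPRR37 (LOC_Os07g49460) and OsPRR73 (LOC_Os03g17570). OsPRR37 had 13.4, 13.7 and 13.7 CPM at 84 h and 74.0, 62.2 and 51.6 CPM at 0 h (log2 fold change −2.20 ± 0.22 (SE), adjusted p = 1.24e-07), and OsPRR73 had 70.5, 92.0 and 70.8 CPM at 84 h and 173, 186 and 150.4 CPM at 0 h (log2 fold change −1.13 ± 0.23 (SE), adjusted p = 0.00127). The 84 h values of OsPRR37 spanned only 13.4 to 13.7 CPM.

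The 7 clock genes that did not pass were OsELF3-1, OsELF3-2, OsELF4a, OsPRR59, OsPRR95, OsZTL1 and OsZTL2, with log2 fold changes from −0.71 (OsPRR95) to 1.27 (OsELF3-2, adjusted p = 0.0631). Of the flowering regulators, only Hd1 (LOC_Os06g16370), the rice CONSTANS, passed the filter on low values, and it rose, with 4.01, 4.69 and 5.86 CPM at 84 h and 0.840, 0.706 and 0.329 CPM at 0 h (log2 fold change 2.96 ± 0.57 (SE), adjusted p = 0.000701).

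The genes of the light-harvesting antenna, the proteins that hold chlorophyll a and b, fell together. Of 14 matched, 13 were tested and 12 fell (92.3%, against 9.07% of all loci), 9 of them as DEGs, with a median of −4.08 against 0.0143 over all loci. LOC_Os03g39610, a chlorophyll a-b binding protein, had 124, 126 and 182 CPM at 84 h, against 10062, 7054 and 7829 CPM at 0 h (log2 fold change −5.85 ± 0.43 (SE), adjusted p = 8.95e-10). The LHCII type III protein (LOC_Os07g37550) had 127, 91.2 and 121 CPM at 84 h and 3866, 2412 and 4525 CPM at 0 h (log2 fold change −5.00 ± 0.53 (SE), adjusted p = 2.5e-07). Summed over the 13 genes, the antenna took 1903 to 3943 CPM at 84 h and 37846 to 61805 CPM at 0 h. At 72 h, the end of chilling and the time of day of 0 h, the sum was already 3257 to 7106 CPM. The exception, LOC_Os09g17740, had 223, 144 and 198 CPM at 84 h and 235, 4.79 and 8199.5 CPM at 0 h, and its 0 h values were far apart. How the counting treated reads shared between members of this family is not given in the sources used here.

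Subunits of the photosystem cores followed the antenna with smaller changes. Of 19 tested, 14 fell (73.7%, against 9.07% of all loci), 9 as DEGs, and none rose past the test (median −2.19). The PSII 10 kDa protein (LOC_Os07g05360) had 21.9, 17.4 and 22.1 CPM at 84 h, against 1241, 541 and 645 CPM at 0 h (log2 fold change −5.30 ± 0.55 (SE), adjusted p = 2e-07), and PSI subunit O (LOC_Os04g33830) had 126, 68.0 and 189 CPM at 84 h, against 3116, 2159.6 and 2846 CPM at 0 h (log2 fold change −4.41 ± 0.46 (SE), adjusted p = 2.44e-07). Oxygen-evolving enhancer protein 3 (LOC_Os07g36080), of the complex that splits water, fell by less (log2 fold change −2.19 ± 0.35 (SE), adjusted p = 9.1e-05). In the chlorophyll synthesis list 5 of 11 fell (45.5%), 4 as DEGs, and 1 of the 5 is a translocon component by description (LOC_Os03g59090). They included glutamyl-tRNA reductase (LOC_Os10g35840), the entry enzyme, with 126, 106 and 158 CPM at 84 h and 691, 517 and 719 CPM at 0 h (log2 fold change −2.31 ± 0.31 (SE), adjusted p = 8.57e-06), and magnesium chelatase ChlH (LOC_Os03g20700), with 106, 66.4 and 114 CPM at 84 h and 676, 462 and 1282 CPM at 0 h (log2 fold change −3.08 ± 0.49 (SE), adjusted p = 7.33e-05). All 4 loci of the Rubisco small subunit had negative log2 fold changes (−2.46 to −0.57), but none passed the test. Of 121 plastid ribosomal proteins 0 rose and 4 fell (3.31%, below the share of all loci, median −0.0497), and without single libraries 0 to 5 rose and 0 to 4 fell.

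**Figure D2:**
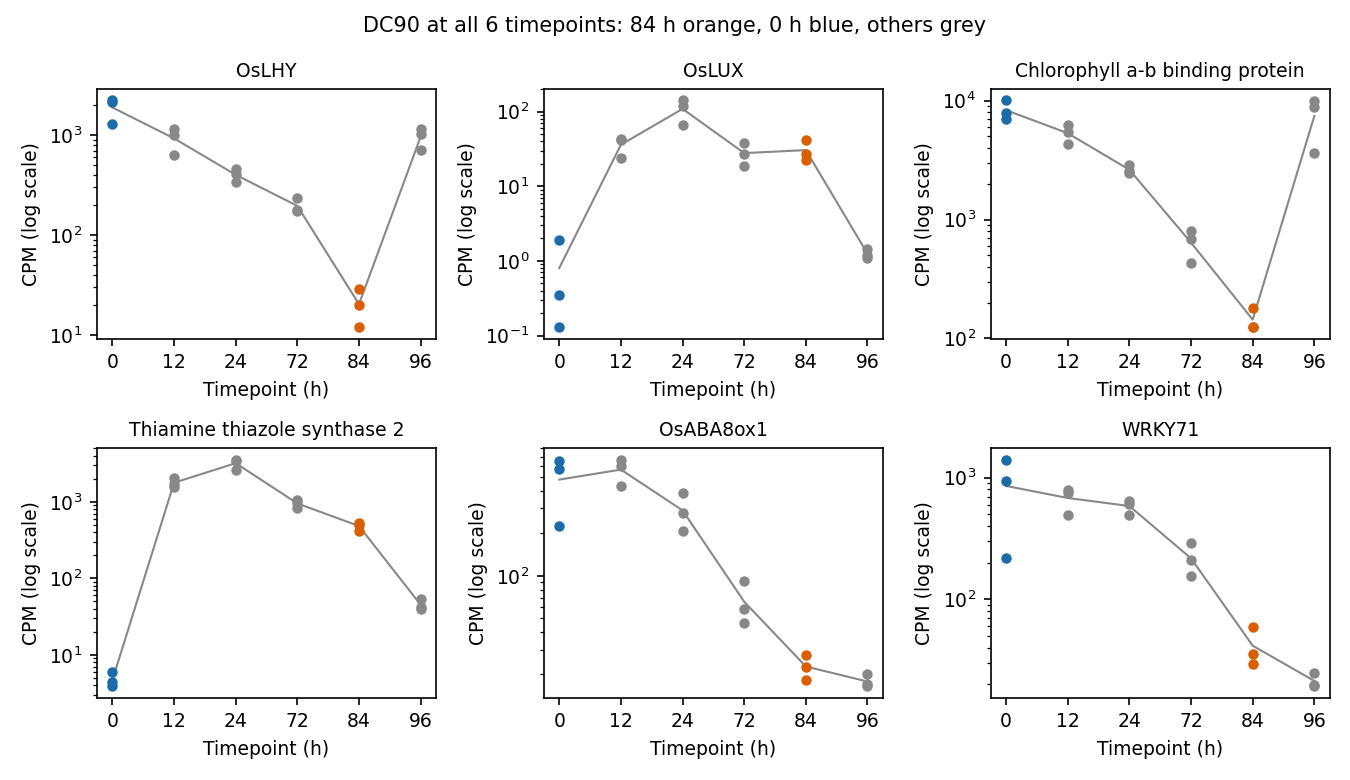
CPM on a log scale (y axis) of 6 genes in each DC90 library at 0, 12, 24, 72, 84 and 96 h (x axis, evenly spaced), with 84 h in orange, 0 h in blue and a line through the means. OsLHY and the chlorophyll a-b binding protein had their lowest means at 84 h and higher ones at 96 h, while OsABA8ox1 and WRKY71 had their lowest means at 96 h.

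At 96 h plants had recovered for 24 h and were back at the time of day of 0 h. The 84 h libraries were also set against DC90 at 96 h. These timepoints too lie 12 h apart in the day, so length of recovery and time of day cannot be told apart here either. For 96 h over 0 h, at the same time of day, the median log2 fold change was −0.42 for the antenna and −0.36 for the core subunits. Of all loci, 278 were higher (1.21%) and 524 lower (2.28%) at 84 h than at 96 h, 3.49% in all, and at the DEG thresholds 21 were higher (0.0915%) and 92 lower (0.401%). Without 84 h replicate 1 or 2 or 96 h replicate 2, the total of 802 became 429, 385 and 475 loci. Of the 13 antenna genes, 10 were lower at 84 h, of 19 core subunits 12, and of 14 clock genes 4 were lower and 3 higher. OsLHY had 1032, 711 and 1160.5 CPM at 96 h (log2 fold change −5.57 ± 0.40 (SE), adjusted p = 1.83e-09 for 84 h over 96 h), and LOC_Os03g39610 had 9855, 3625 and 8818 CPM at 96 h (log2 fold change −5.69 ± 0.43 (SE), adjusted p = 3.34e-09). For both genes each 96 h library was above each 84 h library. The lowest p-values among the lower loci also went to the CONSTANS-described LOC_Os08g08120, BBX19 (LOC_Os09g35880), both B-box zinc finger proteins, and OsPRR37. LOC_Os08g08120 had 2.46, 3.15 and 3.54 CPM at 84 h and 69.0, 90.2 and 67.7 CPM at 96 h (log2 fold change −4.63 ± 0.32 (SE), adjusted p = 1.37e-09), with 90.3, 54.0 and 84.4 CPM at 0 h. BBX19 had 16.1, 20.7 and 15.96 CPM at 84 h and 196, 159 and 224 CPM at 96 h (log2 fold change −3.45 ± 0.27 (SE), adjusted p = 3.68e-09).

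Among the loci higher at 84 h than at 96 h, the lowest p-values went to LOC_Os03g08580, whose description names no function, thiamine thiazole synthase 2, bifunctional nuclease 1, HSF C-1b and CONSTANS-LIKE 9. LOC_Os03g08580 had 73.9, 76.4 and 72.9 CPM at 84 h and 4.20, 4.47 and 4.02 CPM at 96 h (log2 fold change 4.14 ± 0.34 (SE), adjusted p = 1.24e-08). Thiamine thiazole synthase 2 had 39.8, 53.1 and 42.8 CPM at 96 h, below 84 h but above 0 h (log2 fold change 3.42 ± 0.31 (SE), adjusted p = 5.54e-08 for 84 h over 96 h). CONSTANS-LIKE 9 (LOC_Os02g49230) had 51.3, 28.9 and 55.6 CPM at 84 h, 7.77, 11.6 and 8.99 CPM at 96 h and 8.40, 9.11 and 6.67 CPM at 0 h (log2 fold change 2.26 ± 0.25 (SE), adjusted p = 1.55e-06 for 84 h over 96 h). These 10 loci passed under all 15 alternatives that were run for 84 h over 96 h. The comparisons with 0 h and 96 h share the 84 h libraries.

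Genes of early stress responses formed a further group that was lower at 84 h than at 0 h in DC90. Of the 8 DREB1 and ICE genes tested (9 matched), 5 fell (62.5%, against 9.07% of all loci) and 0 rose (median −3.66), though none was a DEG. OsDREB1G (LOC_Os02g45450) had 3.23, 2.51 and 2.79 CPM at 84 h, against 85.2, 149.7 and 19.3 CPM at 0 h (log2 fold change −4.89 ± 0.99 (SE), adjusted p = 0.00116). OsDREB1B (LOC_Os09g35010) had 4.52, 3.53 and 6.26 CPM at 84 h, against 238, 138 and 8.47 CPM at 0 h (log2 fold change −4.75 ± 1.16 (SE), adjusted p = 0.00637), and OsDREB1C (LOC_Os06g03670) had 0.243, 1.44 and 1.08 CPM at 84 h, against 11.8, 53.6 and 3.44 CPM at 0 h (log2 fold change −4.66 ± 0.99 (SE), adjusted p = 0.00173). The 0 h level was high and variable, with replicate 3 the lowest for all 3 genes. Summed, the 8 genes had 155.5, 213.4 and 147.4 CPM at 84 h and 606.0, 671.5 and 186.6 CPM at 0 h. In 9311 the sums were 201.1 and 233.3 CPM at 84 h and 182.3, 261.3 and 251.1 CPM at 0 h. There 1 of the 8 fell and 0 rose (median 0.07), where 5.84% of all loci fell and 3.78% rose. OsDREB1E (LOC_Os04g48350, log2 fold change −4.28 ± 1.10 (SE), adjusted p = 0.00939) and OsDREB1A (LOC_Os09g35030, log2 fold change −2.40 ± 0.72 (SE), adjusted p = 0.0264) fell too. OsDREB1A did not pass without 0 h replicate 1, 84 h replicate 1 or 84 h replicate 2 (adjusted p from 0.11 to 0.129), and OsDREB1E did not without 84 h replicate 2 (adjusted p = 0.0612). OsDREB1H (LOC_Os09g35020) did not pass (log2 fold change −3.04 ± 1.09 (SE), adjusted p = 0.0686), and OsICE1 (LOC_Os11g32100) and OsICE2 (LOC_Os01g70310), the factors that switch on DREB1 genes, had log2 fold changes of 0.11 and −0.52 and did not pass.

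The larger families of stress-related transcription factors moved the same way. Of 92 ERF and AP2 genes tested, 32 fell (34.8%) and 1 rose, of 87 WRKY genes 26 fell (29.9%) and 1 rose, and of 66 NAC genes 16 fell (24.2%) and 2 rose, where 9.07% of all loci fell. DEGs were 15, 9 and 10 of the genes that fell. In 9311, with 2 libraries at 84 h, 5.84% of all loci fell and 3.78% rose. In that line 8 ERF and AP2 genes fell and 11 rose (median 0.23). There 7 WRKY genes fell and 2 rose, and 5 NAC genes fell and 4 rose. ERF9 (LOC_Os05g41780), an ethylene-responsive factor, had 59.4, 40.9 and 64.6 CPM at 84 h, against 896, 389.6 and 359 CPM at 0 h (log2 fold change −3.32 ± 0.34 (SE), adjusted p = 1.48e-07). WRKY71 (LOC_Os02g08440), a factor of defence signalling, had 35.5, 29.4 and 59.5 CPM at 84 h, against 1410.0, 940.1 and 217 CPM at 0 h (log2 fold change −4.37 ± 0.55 (SE), adjusted p = 3.62e-06). NAC2 by description (LOC_Os03g60080) had 48.8, 64.1 and 71.0 CPM at 84 h, against 1663, 599 and 479 CPM at 0 h (log2 fold change −3.90 ± 0.51 (SE), adjusted p = 6.04e-06). In ERF9 and NAC2, 0 h replicate 1 was the highest by far, and in WRKY71 0 h replicate 3 was the lowest. Over the 6 fits that leave out a library of the pair, 24 to 33 ERF and AP2 genes, 17 to 25 WRKY genes and 12 to 16 NAC genes fell.

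ERF073 (LOC_Os09g11460), of the low-oxygen branch of the family, was low at 84 h but not at 96 h. It had 5.05, 4.72 and 6.94 CPM at 84 h and 98.6, 40.6 and 94.6 CPM at 0 h (log2 fold change −3.80 ± 0.40 (SE), adjusted p = 2.59e-07), but 108, 144 and 99.9 CPM at 96 h (log2 fold change −4.40 ± 0.41 (SE), adjusted p = 8.63e-08 for 84 h over 96 h). WRKY71 had 19.7, 24.9 and 19.1 CPM at 96 h, below each 84 h library (log2 fold change 0.96 ± 0.49 (SE), adjusted p = 0.331), and OsDREB1G had 0, 0.240 and 0.805 CPM at 96 h (log2 fold change 3.01 ± 0.98 (SE), adjusted p = 0.0894). For these 2 genes the difference between 84 h and 96 h did not pass the test.

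Jasmonate and cytokinin signalling genes were among those that fell. Of 12 JAZ repressors tested, the proteins that hold back jasmonate responses, 5 fell (41.7%, against 9.07% of all loci) and 0 rose. TIFY 11e (LOC_Os10g25230) had 1.32, 4.53 and 5.25 CPM at 84 h, against 324, 233 and 25.1 CPM at 0 h (log2 fold change −5.72 ± 0.90 (SE), adjusted p = 6.21e-05). Lipoxygenase 5 (LOC_Os04g37430), of the family that starts jasmonate synthesis, had 19.7, 12.97 and 22.5 CPM at 84 h, against 203, 221 and 131 CPM at 0 h (log2 fold change −3.33 ± 0.37 (SE), adjusted p = 4.95e-07), and 3 of 11 lipoxygenases fell in all (27.3%). Of 10 type-A response regulators, which dampen cytokinin signalling, 3 fell (30%). ORR6 (LOC_Os04g57720) had 17.3, 16.7 and 19.7 CPM at 84 h and 157, 120.3 and 84.3 CPM at 0 h (log2 fold change −2.75 ± 0.22 (SE), adjusted p = 3.7e-09), without overlap of the libraries.

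In ABA metabolism all 9 genes were tested, and 5 fell (55.6%, against 9.07% of all loci), 3 as DEGs, with none higher. OsNCED3 (LOC_Os03g44380), the NCED gene examined in the study, had 1.02, 1.19 and 2.34 CPM at 84 h, against 16.6, 31.9 and 15.0 CPM at 0 h (log2 fold change −3.80 ± 0.45 (SE), adjusted p = 1.28e-06). OsABA8ox1 (LOC_Os02g47470), an ABA 8'-hydroxylase, had 22.6, 18.4 and 27.4 CPM at 84 h, against 648, 567 and 227 CPM at 0 h (log2 fold change −4.40 ± 0.55 (SE), adjusted p = 3.49e-06). Genes of synthesis and of removal thus were both lower, without overlap of the libraries. OsNCED1 (LOC_Os02g47510) had 25.9, 17.2 and 33.9 CPM at 84 h and 162, 122 and 123 CPM at 0 h (log2 fold change −2.40 ± 0.47 (SE), adjusted p = 0.000732), and zeaxanthin epoxidase (LOC_Os04g37619), an upstream step (log2 fold change −1.89 ± 0.40 (SE), adjusted p = 0.00193), and OsABA8ox3 (LOC_Os09g28390, log2 fold change −2.25 ± 0.51 (SE), adjusted p = 0.00341) fell too. The other 4 genes did not pass. OsNCED2, OsNCED4, OsNCED5 and OsABA8ox2 had log2 fold changes of 0.78, −2.68, −0.65 and 0.13. Against 96 h, OsNCED1 (195, 103 and 259 CPM at 96 h, log2 fold change −2.86 ± 0.48 (SE), adjusted p = 0.000454) and zeaxanthin epoxidase were lower at 84 h, whereas OsABA8ox1 had 20.03, 17.0 and 16.4 CPM at 96 h (log2 fold change 0.36 ± 0.48 (SE), adjusted p = 0.803) and OsNCED3 2.19, 2.12 and 1.29 CPM (log2 fold change −0.30 ± 0.41 (SE), adjusted p = 0.809). Of the 8 clade A PP2C phosphatases, which restrain ABA signalling, OsPP2C09 (LOC_Os01g62760) and OsPP2C68 (LOC_Os09g15670) fell (log2 fold change −1.78 ± 0.28 (SE), adjusted p = 7.14e-05 for OsPP2C09 and log2 fold change −2.44 ± 0.56 (SE), adjusted p = 0.00346 for OsPP2C68).

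Carbon and nitrogen genes were lower in part. Of 9 raffinose family genes, 4 fell (44.4%, against 9.07% of all loci) and 0 rose. Galactinol-sucrose galactosyltransferase (LOC_Os01g07530), which makes raffinose, had 12.7, 11.8 and 22.1 CPM at 84 h, against 189.8, 139 and 176 CPM at 0 h (log2 fold change −3.44 ± 0.48 (SE), adjusted p = 1.47e-05), and galactinol synthase 2 (LOC_Os03g20120), the step before it, fell as well (log2 fold change −1.93 ± 0.47 (SE), adjusted p = 0.00649). Leaving out libraries gave 1 to 4 such genes. Of 15 amylases 4 fell (26.7%), all beta-amylases by description, with chloroplastic beta-amylase 2 (LOC_Os03g04770) at 27.3, 76.5 and 65.7 CPM at 84 h and 1057, 721 and 453 CPM at 0 h (log2 fold change −3.72 ± 0.54 (SE), adjusted p = 2.05e-05). Of 14 SWEET sugar transporters 4 fell (28.6%), of 19 trehalose genes 4 (21.1%), and of 20 genes at the entry of phenylpropanoid synthesis 5 (25%), with none higher in the 3 lists. Leaving out libraries gave 2 to 4 amylases, 2 to 4 SWEET genes, 4 trehalose genes and 1 to 9 phenylpropanoid genes that fell.

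Of 13 nitrogen assimilation genes, 5 fell (38.5%, against 9.07% of all loci) and 0 rose. Their summed level was 5635 to 8098 CPM at 0 h, 880 to 1450.5 CPM at 72 h and 1104 to 2007 CPM at 84 h. Nitrate reductase 1 (LOC_Os08g36480) had 83.5, 93.2 and 162 CPM at 84 h, against 1289, 1311 and 1859.7 CPM at 0 h (log2 fold change −3.72 ± 0.73 (SE), adjusted p = 0.000826), and nitrite reductase (LOC_Os01g25484), the next enzyme, had 374, 239 and 427 CPM at 84 h, against 2404, 2343 and 2192 CPM at 0 h (log2 fold change −2.74 ± 0.51 (SE), adjusted p = 0.000422). In 0 h replicate 3, the library rich in root markers, nitrate reductase was the highest and nitrite reductase the lowest of its group. Of 30 aquaporins 7 fell (23.3%), among them PIP2-2 (LOC_Os02g41860), a water channel of the plasma membrane, with 75.9, 70.8 and 89.0 CPM at 84 h and 284, 250.3 and 562 CPM at 0 h (log2 fold change −2.22 ± 0.39 (SE), adjusted p = 0.000251). Of 30 expansins, which loosen cell walls, 5 fell (16.7%), with expansin-B2 (LOC_Os10g40710) at 1.79, 0.359 and 1.03 CPM at 84 h and 9.80, 2.68 and 71.1 CPM at 0 h. All 5 expansins that fell, and all aquaporins that fell except NIP3-1, were highest in 0 h replicate 3, the library rich in root markers. Without that library the log2 fold change of expansin-B2 was −2.54 (adjusted p = 0.1, against 0.0041 with it). Leaving out libraries gave 3 to 6 nitrogen assimilation genes, 2 to 8 aquaporins and 0 to 5 expansins that fell. The part of root RNA in these lists was not tested.

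Of 57 loci described as lipid-transfer proteins, 6 rose (10.5%) and 4 fell (7.02%), where 3.24% of all loci rose and 9.07% fell. A glycolipid transfer protein (LOC_Os02g40890) is among the 6 and a StAR-related protein (LOC_Os02g26860) among the 4, both of other families. DIR1 by description (LOC_Os07g18990) had 84.9, 52.0 and 88.6 CPM at 84 h and 15.6, 7.95 and 8.03 CPM at 0 h (log2 fold change 2.84 ± 0.54 (SE), adjusted p = 0.000532). Of 92 loci with peroxidase in their description, 5 rose (5.43%) and 6 fell (6.52%), and 1 of the 5 is OVEREXPRESSOR OF CATIONIC PEROXIDASE 3 (LOC_Os06g39906), which is no peroxidase. Of 66 glutathione S-transferases 5 rose (7.58%) and 6 fell (9.09%). Of 122 loci with cytochrome P450 in their description, 2 rose (1.64%) and 17 fell (13.9%), and 1 of the 17 is the partner enzyme NADPH-cytochrome P450 reductase (LOC_Os08g14570). Leaving out libraries gave 0 to 4 lipid-transfer, 2 to 9 peroxidase and 3 to 6 transferase loci that fell, and 11 to 25 P450 loci.

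Of 214 cytosolic ribosomal proteins 4 rose (1.87%, against 3.24% of all loci) and 1 fell (0.467%, against 9.07%), with a median of 0.24, and without single libraries 1 to 18 rose. Of 46 loci with a core histone in their description 1 rose and 1 fell (2.17% each). Of 19 A- and B-type cyclins 2 rose (10.5%) and 1 fell (5.26%), and none of 8 replication licensing factors or 19 cellulose synthase genes passed. The histone that rose, LOC_Os06g06510, had 0.0152, 60.3 and 0.0174 CPM at 84 h, so that its call rests on replicate 2, and without that library its log2 fold change was −2.63.

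**Figure D3:**
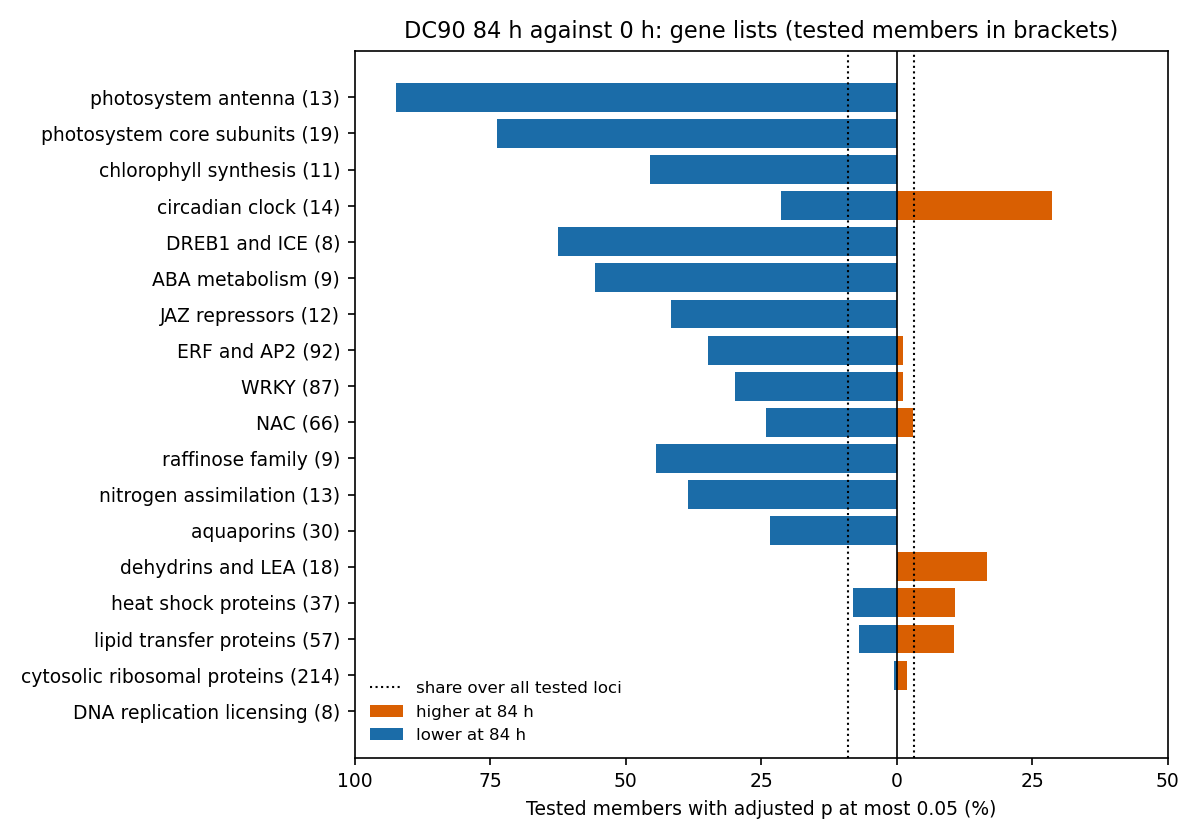
Share of the tested members of 18 gene lists (y axis, number tested in brackets) that were higher (orange, right) or lower (blue, left) in DC90 at 84 h than at 0 h with an adjusted p of at most 0.05 (x axis, %). Dotted lines mark the shares over all loci, 3.24% higher and 9.07% lower. Of the antenna genes 92.3% were lower, and no replication licensing factor passed.

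The remaining genes that the study discusses for recovery were less clear in DC90. The EG45-like domain protein LOC_Os09g29710 had 47.1, 6.27 and 16.3 CPM at 84 h and 10.7, 12.3 and 2.05 CPM at 0 h (log2 fold change 1.48 ± 0.62 (SE), adjusted p = 0.126). Aldehyde dehydrogenase 2C4 (LOC_Os01g40870) had 10.99, 3.17 and 5.49 CPM at 84 h and 0.948, 2.39 and 24.5 CPM at 0 h (log2 fold change −0.50 ± 0.85 (SE), adjusted p = 0.764), and chloroplastic glutamine synthetase (LOC_Os04g56400) had 341, 115 and 316 CPM at 84 h and 1537, 556 and 1138 CPM at 0 h (log2 fold change −2.07 ± 0.71 (SE), adjusted p = 0.0557). The libraries of the groups overlapped for the EG45-like protein and the aldehyde dehydrogenase but not for glutamine synthetase, and none of the 3 passed the test.

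The same contrast in 9311 rests on other libraries, 2 at 84 h and 3 at 0 h, and called 85 DEGs higher (0.37%) and 221 lower (0.963%), 1.33% in all. At an adjusted p of at most 0.05 it called 9.63% of all loci. Of the 72 DEGs higher in DC90, 42 were also DEGs higher in 9311, which is 58.3% of the DC90 list and 49.4% of the 9311 list. Of the 505 DEGs lower in DC90, 172 were also DEGs lower in 9311, 34.1% of the DC90 list and 77.8% of the 9311 list. At an adjusted p of at most 0.05, 62 of the 72 (86.1%, against 3.78% of all loci) were higher and 348 of the 505 (68.9%, against 5.84%) were lower in 9311. In 9311, OsLHY had 12.0 and 9.89 CPM at 84 h and 2333, 1866 and 2237 CPM at 0 h, and thiamine thiazole synthase 2 had 349 and 457 CPM at 84 h and 6.83, 7.86 and 5.22 CPM at 0 h. Of the 13 antenna genes 11 fell in 9311, with a median of −4.72.

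**Figure D4:**
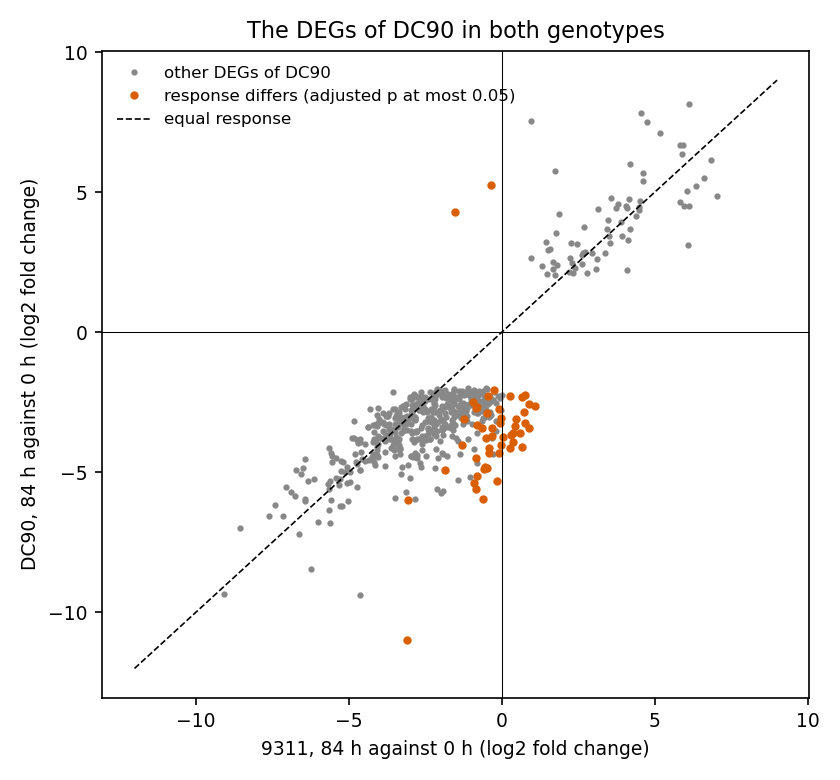
Log2 fold change of 84 h over 0 h in DC90 (y axis) and in 9311 (x axis) for the 577 DEGs of DC90, with the dashed line at equal change and orange points where the response differed with an adjusted p of at most 0.05. DC90 values start at 2 on either side because they chose the points. Of the 505 lower DEGs, 487 also had a negative value in 9311.

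The difference in response between the genotypes was tested directly. The response of DC90 minus that of 9311 was higher for 16 loci (0.0697%) and lower for 176 loci (0.767%), 0.836% in all, at an adjusted p of at most 0.05, and 2839 loci had an unadjusted p under 0.05. Among the 176, 100 fell in DC90 with no change past the test in 9311, and 68 rose in 9311. F-box only protein 13 (LOC_Os07g42590) had 24.99, 23.1 and 25.8 CPM in DC90 at 84 h and 132, 70.0 and 68.1 CPM in DC90 at 0 h, 40.9 and 71.4 CPM in 9311 at 84 h and 47.1, 36.8 and 49.1 CPM in 9311 at 0 h (difference on the log2 scale −2.21 ± 0.33 (SE), adjusted p = 0.00426). Nudix hydrolase 21 (LOC_Os06g14420), of a family that cleaves nucleotide derivatives, had 18.2, 16.3 and 28.8 CPM in DC90 at 84 h and 436, 220.3 and 104 CPM in DC90 at 0 h, 39.6 and 155 CPM in 9311 at 84 h and 84.1, 64.5 and 76.3 CPM in 9311 at 0 h (difference on the log2 scale −3.96 ± 0.66 (SE), adjusted p = 0.00986). In both genes, which were chosen on this difference, DC90 was below 9311 at 84 h and above it at 0 h.

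Of the 92 ERF and AP2 genes, 13 had a lower response in DC90 and 0 a higher response, where 0.767% and 0.0697% of all loci did. In all 13 the mean of DC90 was below that of 9311 at 84 h and above it at 0 h. The 13 were picked by a difference computed from these same means, so this pattern follows in part from the choice. In 12 of them 9311 84 h replicate 3 was above replicate 1. ERF4 (LOC_Os01g58420) had 21.6, 21.4 and 27.1 CPM in DC90 at 84 h and 197, 129.7 and 128 CPM in DC90 at 0 h, 38.1 and 78.5 CPM in 9311 at 84 h and 105, 105 and 100.9 CPM in 9311 at 0 h (difference on the log2 scale −1.87 ± 0.37 (SE), adjusted p = 0.0206). Inactive beta-amylase 9 (LOC_Os03g22790) had 33.5, 22.5 and 45.5 CPM in DC90 at 84 h and 267, 235 and 361 CPM in DC90 at 0 h, 66.4 and 126 CPM in 9311 at 84 h and 242, 182 and 252 CPM in 9311 at 0 h (difference on the log2 scale −1.86 ± 0.40 (SE), adjusted p = 0.028). It fell in both genotypes, and more in DC90. These calls rest on few libraries. Without 9311 84 h replicate 3 only 5 loci and 0 ERF and AP2 genes were called, without 9311 84 h replicate 1 497 loci, without 9311 0 h replicate 2 8 loci, and without DC90 0 h replicate 1 81 loci and 5 ERF and AP2 genes. Without 9311 0 h replicate 1 or 3 or DC90 84 h replicate 1, 2 or 3, the counts were 34, 36, 40, 37 and 89 loci. A fit of the 4 groups alone called 1 locus, which was not among the 192.

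**Figure D5:**
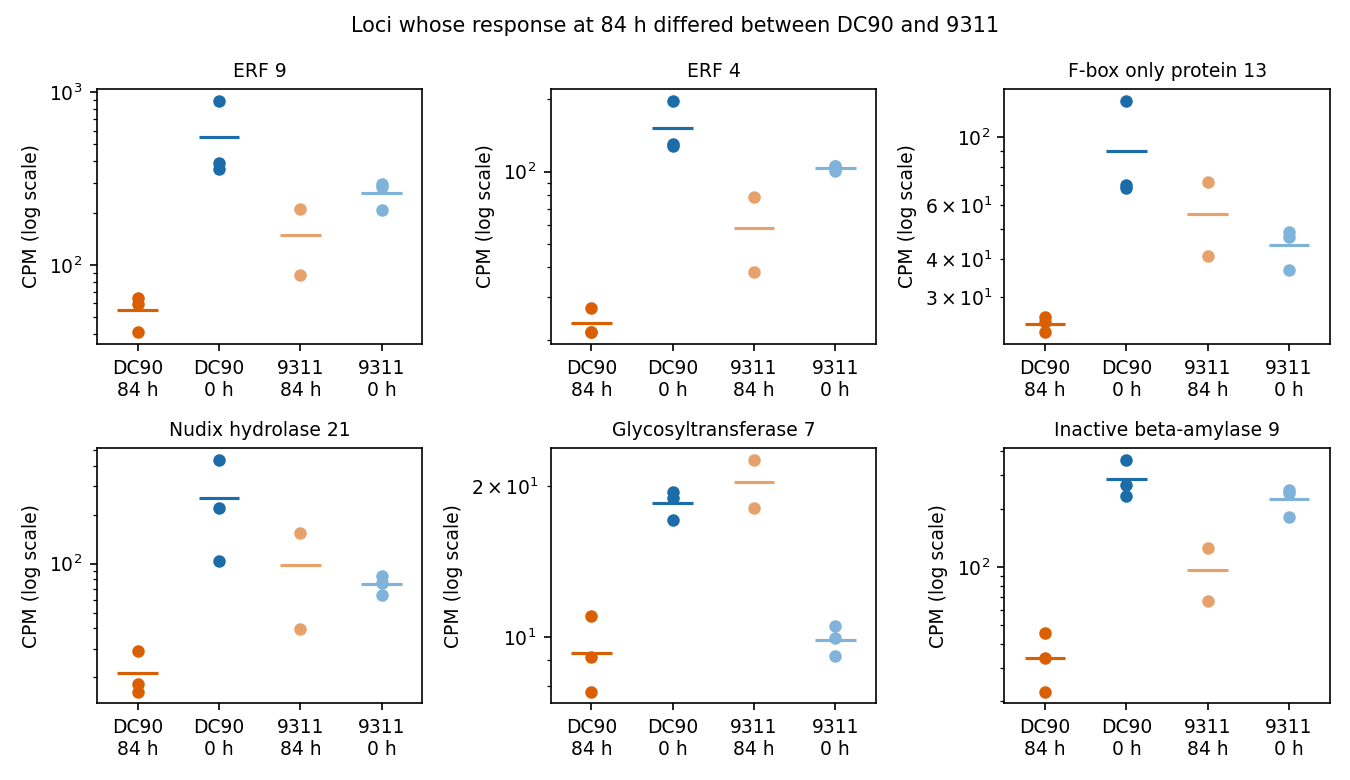
CPM on a log scale (y axis) of 6 loci with a difference in response, in each library of DC90 at 84 h and 0 h and of 9311 at 84 h and 0 h (x axis, bar at the mean). For F-box only protein 13, Nudix hydrolase 21, ERF9 and ERF4, DC90 lies below 9311 at 84 h and above it at 0 h, and the 2 libraries of 9311 at 84 h lie apart. The loci were chosen on the difference in response.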

How the data were processed

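Whole 30-day-old plants of DC90 and 9311 were profiled by RNA-Seq at 6 times, and the 35 libraries analysed here were grouped by their labels. The authors mapped reads with HISAT2 to Release 7 of the Rice Genome Annotation Project and deposited a count and an FPKM value per locus and library for 57778 loci, 1816 of them added by the authors. The submitters' processing notes instead name Bowtie 0.12.2 and the build mm8, and the counting tool and its treatment of shared reads and strand are not given in the sources used here. The deposited counts were tested and the deposited FPKM served as filter (mean of at least 0.5, 22961 loci) and in 1 alternative. Library totals were 28.004 to 68.927 in units of 1e6 counts, with 3 libraries a group (2 for 9311 at 84 h), and the study calls them biological replicates without saying which plants each library held, so that p-values measure the spread between these libraries. Ratio intervals and floors (3 counts per library, 95% level) cover counting error only.

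All 12 groups were fitted together with edgeR 4.0.16 (TMM, quasi-likelihood test, common biological coefficient of variation 0.4255) in R 4.3.3, and p-values were adjusted by Benjamini-Hochberg over the 22961 loci. Contrasts were DC90 84 h over 0 h, DC90 84 h over 96 h, 9311 84 h over 0 h, and the difference of the responses of DC90 and 9311. Each SE given is approximate, the absolute log2 fold change divided by the square root of the F statistic of the quasi-likelihood test. Alternatives were DESeq2 1.42.0 (size factors in edgeR, or its Wald test), limma 3.58.1 on log2(FPKM + 1), other filters and thresholds, the compared groups alone, a replicate block, and leaving out each library. The scripts were tested on simulated counts with known changes, whose spread followed expression level alone. Of 100 log2 changes of 3, 93 had an adjusted p of at most 0.05 and 86 were DEGs. Of 100 log2 changes of 1.5, these were 24 and 8, so a gene that did not pass is not shown to be unchanged. Gene lists came from symbols and words in deposited descriptions, so that a list can hold proteins of other kinds. Named genes were the 12 largest rises and 12 largest falls among described DEGs with no overlap of libraries and a mean FPKM of at least 1 in the higher group, up to 4 members per list with the lowest p, all clock, DREB1, ICE and ABA metabolism genes, 5 genes of the study, and the 5 loci each way with the lowest p in the other contrasts. Members and lists were chosen with earlier results of these data known. Other members are named where a sentence needs them and were then chosen after their values were seen. Descriptions and roles of genes known from Arabidopsis are background.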

Additional observations from a re-analysis of the deposited data

Results flagged for a closer look

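The response to 84 h differed between DC90 and 9311, by the interaction test of edgeR, at 192 loci, of which 10 had the lowest p-values within their direction. Values are the response of DC90 minus that of 9311 on the log2 scale. The lower ones were F-box only protein 13 (LOC_Os07g42590, −2.21), LOC_Os03g47280, described as a homolog of the Wiskott-Aldrich syndrome protein (−5.16), Nudix hydrolase 21 (LOC_Os06g14420, −3.96), glycosyltransferase 7 (LOC_Os02g49140, −2.03) and LOC_Os03g52680 (−3.43). The higher ones were LOC_Os05g32860 (6.11), LOC_Os06g35165 (5.40), LOC_Os05g25080 (1.57), LOC_Os10g21396, described as a plastid NAD(P)H-quinone oxidoreductase subunit (5.81), and LOC_Os05g11580 (5.81). For LOC_Os05g32860 the 9311 libraries had 0.0490 and 0.0422 CPM at 84 h and 2.90, 2.08 and 2.09 CPM at 0 h, while the 6 DC90 libraries had 0.376 to 3.10 CPM. Without 9311 84 h replicate 3, 1 of the 10 loci passed.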

How the results depend on the processing

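Of the 577 DEGs of DC90 84 h over 0 h, the count became 967 with the DESeq2 Wald test, 1 with the compared groups alone (0 of them among the 577) and 2262 with a log2 fold change of 1 and an adjusted p of 0.05 as thresholds. Leaving out single libraries gave 297 to 558 DEGs, the highest without DC90 24 h replicate 1, an alternative chosen after seeing the data because that library stood apart at LOC_Os12g07010 and LOC_Os12g07020. The 2827 loci at an adjusted p of at most 0.05 became 1680 with the compared groups alone, 6812 with limma on FPKM, and 1778 to 3249 without single libraries. The 192 loci with a difference in response became 649 with the Wald test, 117 without the filter, 1 with the compared groups alone (0 of them among the 192), 96 with the replicate block and 5 to 497 without single libraries. The 802 loci of 84 h over 96 h became 1589 with the Wald test, 2029 with limma (1541 higher and 488 lower) and 385 to 785 without single libraries. The causes of these shifts were not tested. Histone H3.2 LOC_Os06g06510 had −2.63 to 7.99, with the negative value without DC90 84 h replicate 2.

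Replicate numbers were not taken to pair libraries, since same-numbered libraries of 84 h and 0 h had correlations of −0.0881, 0.2768 and 0.1026. With the replicate block, counts were 562 DEGs, 2789 loci at an adjusted p of at most 0.05 and 756 loci over 96 h. Of 166 named genes past the test, 130 stayed past it with the compared groups alone, 149 with limma, 162 with the block and 135 without DC90 84 h replicate 2, where 1 reversed. Further alternatives chosen after seeing the data, a filter on the 6 libraries and a fit of the 18 DC90 libraries, gave 576 and 572 DEGs.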
